A study of Mus musculus with 9 samples.

Results

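The genes described here are 10 antioxidant enzymes and targets of the transcription factor NRF2, taken by their symbols (Nqo1, Hmox1, Gclc, Gclm, Gsr, Srxn1, Prdx1, Sod1, Sod2 and Cat) from the 13192 named genes of the deposited count table, and all 10 were found in it. The RNA was that of the apex of the heart in wild-type male mice (C57BL/6J) injected in the right gastrocnemius, a leg muscle, at 10 weeks of age with 1e+11 particles of an adeno-associated virus (AAV) and examined 12 weeks later. AAV-Osm, a vector for oncostatin M, a cytokine of the interleukin-6 family, was given to 1 group (5 samples), and the control vector AAV-Null to the other (4 samples analysed here). No other allele or agent is named for either group, and the sources used here do not give the vectors' promoter or serotype. Osm itself is not analysed here, and the labels were therefore not checked against the transgene.

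NRF2, encoded by Nfe2l2, is held in the cytoplasm and marked for destruction by KEAP1. When oxidants or electrophiles modify KEAP1, NRF2 accumulates, pairs with small MAF proteins and binds antioxidant response elements (ARE) in the DNA near its target genes, sites for which BACH1 competes as a repressor. Superoxide dismutases turn superoxide from the respiratory chain into hydrogen peroxide, which catalase, peroxiredoxins and glutathione peroxidases remove. Heart muscle, rich in mitochondria, depends on both the constitutive enzymes of this chain and the inducible NRF2 targets.

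Promoter windows were available in RefSeq (GRCm38.p6, the build also called mm10) for 7 of the 10 genes, each from 250 bases before to 50 bases after the gene's start, and the ARE core was searched in them as TGACNNNGC on both strands. It was present in 4 of these 7 windows and in 12.4% of all 32851 windows of the same length. The 4 that hold it are printed 5′ to 3′ along the gene's strand because they include Gclm and Sod1, the pair of members whose levels were most opposed between libraries. Capitals mark the ARE core, which in all 4 reads in the opposite direction to the gene.
Gclm promoter, chr3:122245307-122245606, plus strand: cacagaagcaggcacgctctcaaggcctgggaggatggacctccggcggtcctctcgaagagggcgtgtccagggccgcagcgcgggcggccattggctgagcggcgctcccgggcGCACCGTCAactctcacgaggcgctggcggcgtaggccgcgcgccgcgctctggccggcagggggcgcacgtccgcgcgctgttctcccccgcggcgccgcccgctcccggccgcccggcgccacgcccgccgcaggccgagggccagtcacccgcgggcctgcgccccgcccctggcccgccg
Sod1 promoter, chr16:90220512-90220811, plus strand: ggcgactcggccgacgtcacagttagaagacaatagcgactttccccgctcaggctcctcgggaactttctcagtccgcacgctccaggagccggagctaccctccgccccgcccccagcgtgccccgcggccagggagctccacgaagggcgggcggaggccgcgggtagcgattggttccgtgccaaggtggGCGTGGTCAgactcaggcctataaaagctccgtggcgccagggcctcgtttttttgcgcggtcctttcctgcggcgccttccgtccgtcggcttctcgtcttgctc
Prdx1 promoter, chr4:116685349-116685648, plus strand: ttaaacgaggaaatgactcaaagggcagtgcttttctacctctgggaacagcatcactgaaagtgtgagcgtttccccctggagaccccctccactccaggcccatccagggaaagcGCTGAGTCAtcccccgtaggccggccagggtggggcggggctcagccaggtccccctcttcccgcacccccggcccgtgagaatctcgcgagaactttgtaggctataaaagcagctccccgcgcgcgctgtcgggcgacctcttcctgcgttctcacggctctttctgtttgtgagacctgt
Srxn1 promoter, chr2:152105274-152105573, plus strand: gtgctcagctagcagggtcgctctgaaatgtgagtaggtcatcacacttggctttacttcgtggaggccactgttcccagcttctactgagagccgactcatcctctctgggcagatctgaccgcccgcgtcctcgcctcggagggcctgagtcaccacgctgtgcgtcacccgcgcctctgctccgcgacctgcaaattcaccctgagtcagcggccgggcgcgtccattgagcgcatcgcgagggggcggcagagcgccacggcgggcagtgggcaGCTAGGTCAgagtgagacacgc

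The related AP-1 letters TGANTCA were present in 7.81% of all windows and in 2 of the 7 member windows, those of Prdx1 and Srxn1. In Prdx1 the ARE core (116685466 to 116685474) overlaps such a match, and in Srxn1 the 2 matches lie apart from it. The windows of Nqo1, Sod2 and Cat held neither set of letters, which says nothing of elements farther from the start. A match of letters is a description and no measurement of binding was made.

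Total counts ran from 11841106 to 30625134 per library. The lowest count of any member in any library was 84, for Gclc, and Sod2, the most counted member, reached 13053. Levels are given as CPM, counts relative to the library's total after scaling by the trimmed mean of M-values (TMM). The 10 cardiomyocyte markers (Myh6 and Tnnt2 among them) were all present and summed to 87696 to 111244 CPM in AAV-Null hearts, with 89278 to 116886 CPM under AAV-Osm. In whole tissue, fewer cells of a type and less RNA per cell cannot be told apart. Nothing in the labels states outright that each library came from its own mouse, and the p-values then describe only how far these 9 samples spread, which may be technical.

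Compared per kilobase of summed exon length and averaged over the 9 libraries, the members spanned a wide range of levels in the heart. Sod1, the cytosolic copper-zinc superoxide dismutase, stood highest at 512 ± 85.3 CPM per kilobase (SD, n = 9). Prdx1, a cytosolic peroxiredoxin, followed at 222 ± 30.7 CPM per kilobase, and Sod2, the mitochondrial manganese enzyme, at 119 ± 20.7. Catalase, the peroxisomal enzyme encoded by Cat, was at 54.9 ± 22.7 CPM per kilobase and Nqo1, a quinone reductase, at 39.7 ± 6.96. These 2 were not separated beyond their spread, Cat being the higher in 5 of 9 libraries. Srxn1, the sulfiredoxin that restores overoxidised peroxiredoxins, was at 11.1 ± 2.57 CPM per kilobase. Hmox1, the inducible haem oxygenase, Gclm, the modifier subunit of glutamate-cysteine ligase, and Gsr, glutathione reductase, lay close together at 5.55 ± 1.74, 5.39 ± 1.57 and 4.78 ± 0.889 CPM per kilobase, with overlapping ranges. Gclc, the catalytic subunit of glutamate-cysteine ligase, was lowest at 1.91 ± 0.444 CPM per kilobase, below Gsr in all 9 libraries. The exon lengths behind these levels run from 0.648 kilobases for Sod1 to 3.82 for Sod2. Transcripts of 4 members hold stretches that match other genes, which makes their counts uncertain. Prdx1 and Sod1 match processed pseudogenes over up to 597 and 465 bases. Sod2 matches Rps6ka2 and a long noncoding RNA over 3110 and 3108 bases and other genes over at most 193, and Gclm matches Ppia and other genes over at most 297 bases.

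The comparison asked whether these genes differed in hearts of mice given AAV-Osm, in a study of how extra oncostatin M affects heart function, skeletal muscle and fibrosis. None of the 10 members passed an adjusted p of 0.05 in edgeR's quasi-likelihood test, in which 0.121% of the 13192 genes were called, and 0 had an unadjusted p under 0.05, a level reached by 5.97% of all genes (2.89% higher and 3.09% lower). DESeq2 and limma-voom called 0 members as well, and limma-voom with quality weights 0 members but 170 of all genes. In that last fit Nqo1 and Sod1 had an unadjusted p under 0.05 (adjusted 0.0850 and 0.180). The share of all genes at that level was not counted for it, the 5.97% being that of edgeR. In all 10 the AAV-Osm and AAV-Null libraries overlapped, whereas 2.28% of all genes had groups that did not. Log2 fold changes, AAV-Osm over AAV-Null, were above 0 in 8 members and below 0 in 2, ran from -0.18 to 0.26 and had a median of 0.09, against a median of 0.01 and 51.9% above 0 over all genes. The count above 0 fell to 4 without AAV-Null 3 and AAV-Null 4 and to 3 without AAV-Null 4 and AAV-Osm 5. The widest 95% interval, that of Cat, ran from 0.704-fold to 1.89-fold, and the other 9 lay between 0.713-fold and 1.72-fold.

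**Figure D1:**
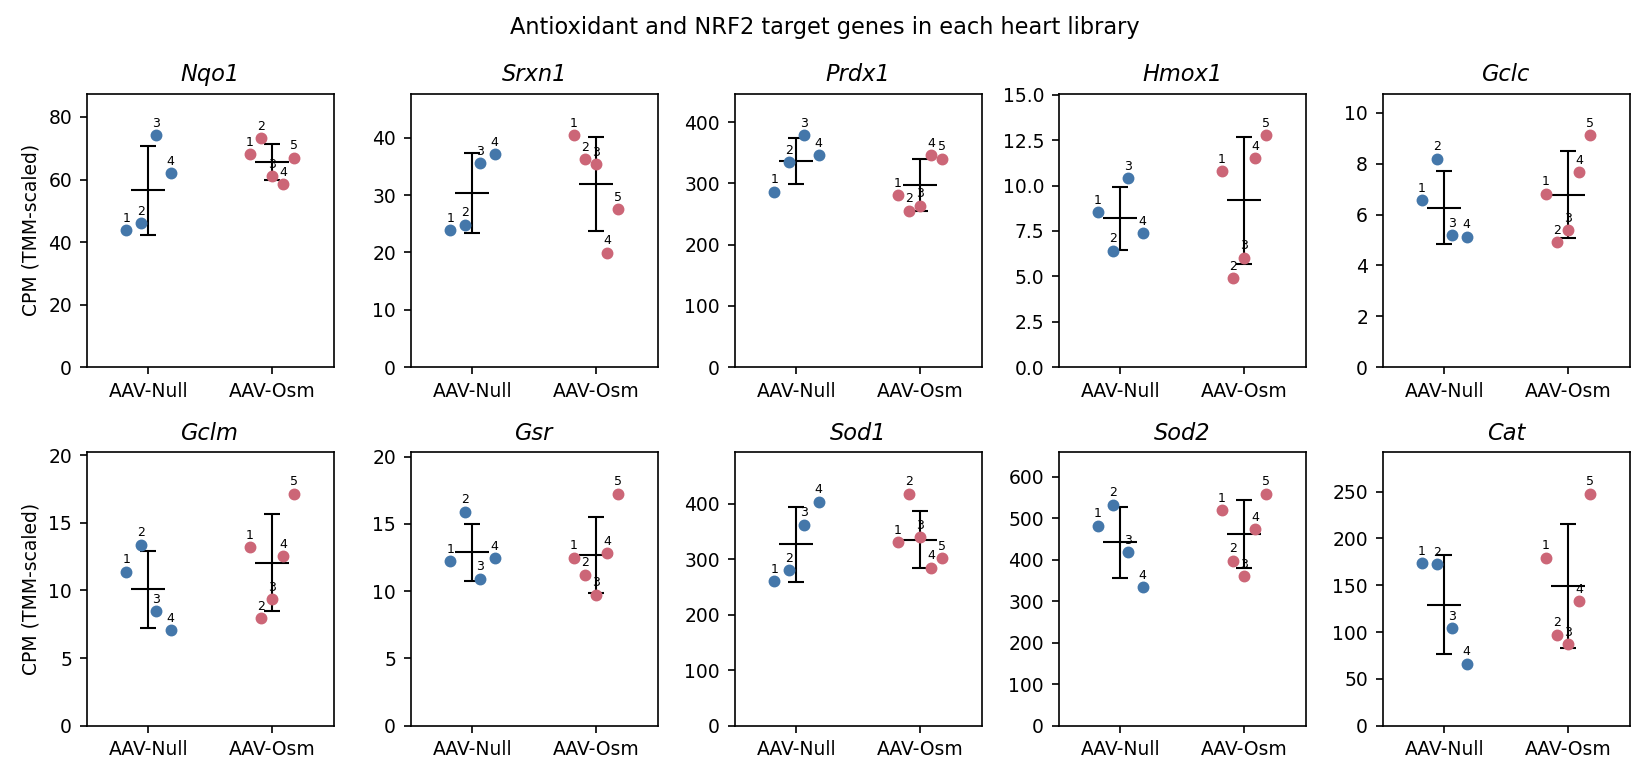
TMM-scaled CPM of the 10 genes in each library (points, numbered by replicate), with the mean and SD of each group in black; each vertical axis starts at 0. The groups overlap in every panel, and AAV-Osm 5 is the highest library for 6 of the 10 genes.

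Nqo1, whose product reduces quinones (chromosome 8, 107388225 to 107403205, minus strand, mm10), had the smallest p of the 10. It was at 43.8, 46.0, 74.2 and 62.0 CPM in AAV-Null 1 to 4, while AAV-Osm 1 to 5 stood at 68.2, 73.2, 61.1, 58.6 and 67.0 CPM. The AAV-Osm hearts thus lay within the range of the controls, above AAV-Null 1 and 2 and near AAV-Null 3 and 4. Group levels were 56.5 ± 14.3 CPM (SD, n = 4) and 65.6 ± 5.81 CPM (SD, n = 5), which gave a log2 fold change of 0.22 with an SE of 0.16 (adjusted p = 0.934 in edgeR). It was 0.55 with AAV-Null 3 and 4 left out (SE 0.16, edgeR adjusted p = 0.371). That fit has only AAV-Null 1 and 2 as controls, whose counts were the most alike of all 36 pairs of libraries. For Nqo1, limma-voom with quality weights, which gives libraries that stand apart less weight, gave 0.47 (adjusted p = 0.0850). The liver-type markers, 11 of 12 of them in the table, summed to 7.57, 29.4, 189 and 106 CPM in AAV-Null 1 to 4. In AAV-Osm 1 to 5 they summed to 37.5, 7.14, 70.4, 42.4 and 18.6 CPM. Their part in the Nqo1 values was not tested.

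Srxn1 (chromosome 2, 152105524 to 152111376, plus strand) was at 23.9, 24.8, 35.6 and 37.2 CPM in AAV-Null 1 to 4, while AAV-Osm 1 to 5 stood at 40.4, 36.2, 35.4, 19.9 and 27.5 CPM. Both the lowest and the highest library were AAV-Osm hearts, and the log2 fold change was 0.07 with an SE of 0.21 (adjusted p = 0.987 in edgeR). Prdx1 (chromosome 4, 116685599 to 116700000, plus strand), whose overoxidised form Srxn1 restores, had the lowest log2 fold change of the members. Its libraries were at 287, 335, 379 and 346 CPM in AAV-Null and at 281, 256, 264, 346 and 341 CPM in AAV-Osm hearts. AAV-Osm 1 to 3 lay below every control and AAV-Osm 4 and 5 among them, which gave a log2 fold change of -0.18 with an SE of 0.14 (adjusted p = 0.938 in edgeR). The sign of Prdx1 was negative and that of Nqo1 positive under all 20 alternative settings.

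Hmox1 (chromosome 8, 75093618 to 75100593, plus strand) breaks haem down to biliverdin, carbon monoxide and iron. It was at 8.52, 6.42, 10.4 and 7.38 CPM in AAV-Null 1 to 4, while AAV-Osm 1 to 5 stood at 10.8, 4.90, 6.02, 11.5 and 12.8 CPM. The AAV-Osm libraries fell both below and above the controls, and the log2 fold change was 0.17 with an SE of 0.27 (adjusted p = 0.977 in edgeR). Macrophages are a known source of Hmox1. Their 10 markers, all present, summed to 445 to 946 CPM in AAV-Null hearts, with 471 to 667 CPM under AAV-Osm. In the order of the Hmox1 values above, the sums were 461, 445, 637 and 946 CPM, then 667, 471, 482, 540.0 and 479 CPM, and their part in the Hmox1 values was not tested.

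Glutathione is made from glutamate and cysteine in a first, limiting step by the 2 subunits of glutamate-cysteine ligase, and Gsr returns its oxidised form to the reduced one. Gclm (chromosome 3, 122245557 to 122267215, plus strand) was at 11.4, 13.4, 8.48 and 7.04 CPM in AAV-Null 1 to 4, while AAV-Osm 1 to 5 stood at 13.2, 7.96, 9.36, 12.5 and 17.1 CPM. It had the highest log2 fold change of the members, 0.26 (SE 0.24, edgeR adjusted p = 0.95), with AAV-Osm 5 above every other library. Without AAV-Null 4 and AAV-Osm 5, the lowest and the highest of the 9, that value was -0.04. Gclc (chromosome 9, 77754535 to 77794489, plus strand) was at 6.57, 8.19, 5.2 and 5.14 CPM in AAV-Null 1 to 4, while AAV-Osm 1 to 5 stood at 6.82, 4.90, 5.38, 7.66 and 9.12 CPM. AAV-Osm hearts included both the lowest and the highest level of Gclc, with a log2 fold change of 0.11 and an SE of 0.22 (adjusted p = 0.981 in edgeR). Gsr (chromosome 8, 33653238 to 33698162, plus strand) ran from 10.9 to 15.9 CPM in AAV-Null and from 9.74 to 17.2 CPM in AAV-Osm hearts, a log2 fold change of -0.02 with an SE of 0.18 (adjusted p = 0.999 in edgeR).

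The ratio of Gclc to Gclm within a library does not depend on how libraries are scaled. Per kilobase, it was 0.349, 0.370, 0.370 and 0.441 in AAV-Null 1 to 4, while AAV-Osm 1 to 5 had 0.312, 0.373, 0.348, 0.369 and 0.322. The catalytic subunit's transcript was therefore the scarcer in all 9 hearts, in a narrow range. The group means of its log2 value were -1.39 ± 0.146 (SD, n = 4) and -1.54 ± 0.115 (SD, n = 5), a difference of -0.15 (exact permutation test, two-sided, of every regrouping, p = 0.159; Benjamini-Hochberg over the 2 ratios tested, 0.317). The smallest p this design allows is 0.00794.

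The superoxide dismutases showed no difference between the groups larger than their spread. Sod1 (chromosome 16, 90220742 to 90226324, plus strand) was at 261, 281, 362 and 404 CPM in AAV-Null 1 to 4, while AAV-Osm 1 to 5 stood at 331, 418, 340, 285 and 302 CPM. Its log2 fold change was 0.04 with an SE of 0.17 (adjusted p = 0.991 in edgeR). Sod2 (chromosome 17, 13007839 to 13018119, plus strand) was at 482, 533, 419 and 334 CPM in AAV-Null 1 to 4, while AAV-Osm 1 to 5 stood at 520, 398, 361, 473 and 559 CPM, a log2 fold change of 0.07 with an SE of 0.17 (adjusted p = 0.987 in edgeR). The control libraries with the most Sod1, AAV-Null 3 and 4, had the least Sod2.

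Per kilobase, Sod1 exceeded Sod2 in every heart, by 3.19, 3.11, 5.11 and 7.14 times in AAV-Null 1 to 4 and by 3.75, 6.20, 5.55, 3.55 and 3.18 times in AAV-Osm 1 to 5. That order rests on the exon lengths, 0.648 kilobases for Sod1 and 3.82 for Sod2. Without them the mean log2 ratio in AAV-Null hearts was -0.44. In the CPM given above, Sod2 was the higher except in AAV-Null 4 and AAV-Osm 2. The ratio per kilobase varied more than 2-fold within the control group alone. Sod1 is the shortest member and Sod2 the longest. In the same order of libraries, a measure of short against long genes, defined below, was -0.25, -0.16, 0.14 and 0.28, then -0.04, 0.08, 0.05, 0.02 and -0.12. The part of that measure in the ratio was not tested. The log2 means of the ratio were 2.12 ± 0.577 (SD, n = 4) and 2.10 ± 0.423 (SD, n = 5), a difference of -0.02 (exact two-sided permutation test, p = 0.929; Benjamini-Hochberg over the 2 ratios, 0.929). Without AAV-Null 3 and AAV-Null 4 the difference was 0.45 (exact two-sided permutation test, p = 0.143).

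Cat (chromosome 2, 103453904 to 103485153, minus strand) was the most variable member. It was at 174, 173, 104 and 66.3 CPM in AAV-Null 1 to 4, while AAV-Osm 1 to 5 stood at 180, 97.0, 87.2, 133 and 248 CPM, so that the highest heart exceeded the lowest 3.74-fold. The coefficient of variation was 41.1% in AAV-Null and 44.4% in AAV-Osm hearts, and in the other members it ran from 8.86% to 38.1%. Group levels were 129 ± 53.1 CPM (SD, n = 4) and 149 ± 66.1 CPM (SD, n = 5), which gave a log2 fold change of 0.21 with an SE of 0.33 (adjusted p = 0.976 in edgeR). It was -0.22 without AAV-Null 3 and AAV-Null 4 and -0.27 without AAV-Null 4 and AAV-Osm 5. Red cells are rich in catalase, and the 4 of 8 erythroid markers in the table summed to 128 to 239 CPM in AAV-Null hearts, with 98.5 to 254 CPM under AAV-Osm, while the globin genes listed were not analysed here. In the order of the Cat values above, the sums were 128, 128, 140 and 239 CPM, then 254, 105, 206, 98.5 and 144 CPM, and their part in the Cat values was not tested.

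**Figure D2:**
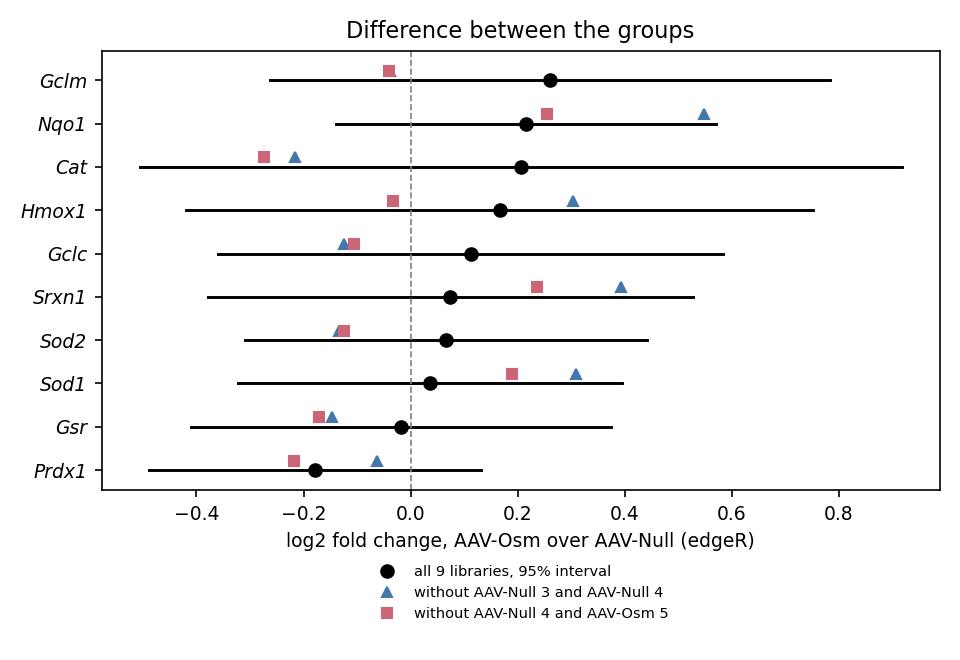
Log2 fold change of each gene, AAV-Osm over AAV-Null, with its 95% interval from edgeR on all 9 libraries (black), and the value with AAV-Null 3 and 4 (triangles) or AAV-Null 4 and AAV-Osm 5 (squares) left out. All 10 intervals include 0, and the values of Gclm, Cat, Gclc and Sod2 change sign in both reduced sets.

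Within the groups, some members varied together from library to library and others in opposite directions. Correlations were computed over the 9 libraries on log2 CPM after subtraction of each group's mean, for all 45 pairs of members, with an exact two-sided permutation test over the 2880 rearrangements within groups and Benjamini-Hochberg adjustment over the 45 pairs. Pearson's r was above 0 in 26 pairs and below 0 in 19, with a median of 0.32. Adjusted p was under 0.05 for 5 pairs, all positive, by Pearson's r and for 4 by Spearman's rho. The share of such pairs among other genes was not counted, and some genes outside the list, named below, reached r as high. Sod2 with Cat had the highest r, 0.98 (rho 0.95, permutation p = 0.000694 and 0.00174, adjusted 0.0208 and 0.0313). It was 0.96 without AAV-Null 4 and AAV-Osm 3, the libraries farthest from the median of Sod2. AAV-Osm 5, the farthest from the median of Cat, was kept in that value. Gclc with Gclm had r = 0.97 (rho 0.93, permutation p = 0.00104 and 0.00243, adjusted 0.0208 and 0.0313), and 0.93 without AAV-Osm 2 and AAV-Osm 5. Gclm with Cat (r = 0.95), Gclm with Sod2 (r = 0.94) and Gclc with Gsr (r = 0.88) were the other 3, with permutation p = 0.00278, 0.00139 and 0.00486 (adjusted 0.0313, 0.0208 and 0.0438). With any 1 library left out, which leaves 720 or 576 rearrangements, 0 of the 45 pairs had an adjusted p under 0.05. The adjusted p of Sod2 with Cat then ran from 0.0521 to 0.156 at r from 0.96 to 0.98, and that of Gclc with Gclm from 0.0586 to 0.156 at r from 0.95 to 0.98.

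A group of 5 genes, Gclc, Gclm, Gsr, Sod2 and Cat, had r from 0.74 to 0.98 over its 10 pairs. Nqo1, Srxn1 and Sod1 had r from 0.70 to 0.81 over their 3 pairs. All 15 pairs between these sets were negative, from -0.85 to -0.29. With libraries scaled by total counts these 15 ran from -0.62 to -0.0073. In the AAV-Osm libraries alone, and without AAV-Null 3 and AAV-Null 4, 12 of the 15 were negative, with highest values of 0.13 and 0.19. The sets were chosen after their values were seen, so these ranges are a description. Gclm with Sod1 was the most opposed pair, with r = -0.85 (rho -0.78, permutation p = 0.0139 and 0.0295, adjusted 0.0712 and 0.121). That pair had r = -0.65 without AAV-Null 4 and AAV-Osm 2, the libraries farthest from the median of Gclm. When libraries were scaled by total counts it had r = -0.60 (permutation p = 0.118). Over the 9 libraries Hmox1 and Prdx1 followed neither set closely, and Hmox1 with Gclc changed from 0.56 to -0.39 without AAV-Osm 2 and AAV-Osm 3. For Hmox1 and Prdx1 the sign of r with the group of 5 genes was not the same in the 2 groups. These values rest on only 4 and 5 libraries and were picked after being seen, and the difference was not tested. The 5 genes varied together, so their values are not separate observations. With the group of 5 genes, r in the AAV-Osm libraries alone was 0.78 to 0.96 for Hmox1 and 0.68 to 0.93 for Prdx1. In the AAV-Null libraries alone it was -0.92 to -0.16 for Hmox1 and -0.59 to -0.24 for Prdx1.

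**Figure D3:**
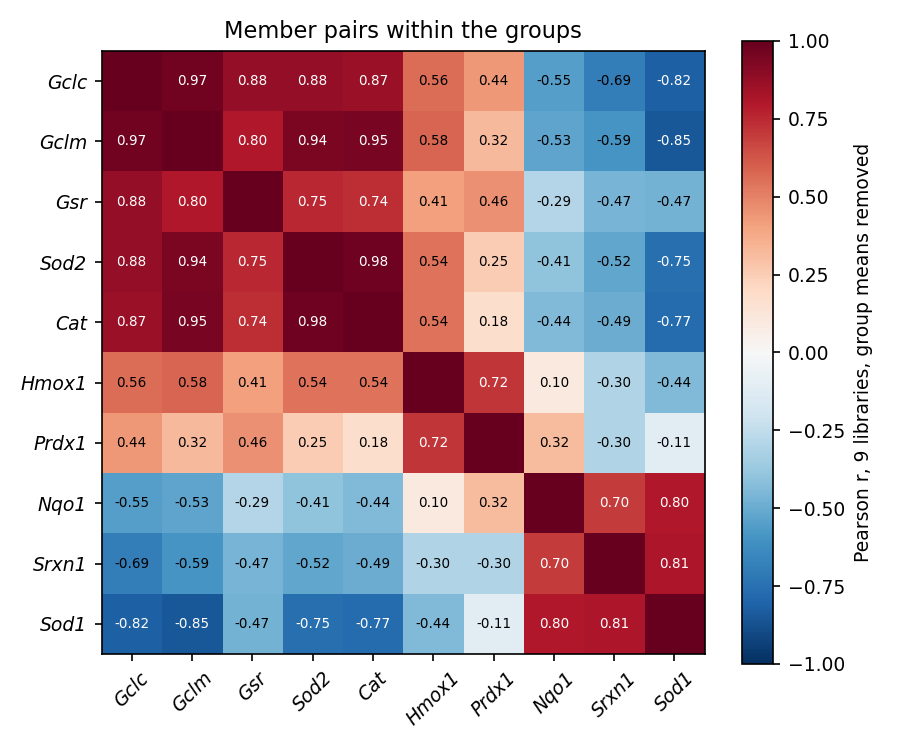
Pearson's r of log2 CPM over the 9 libraries for each pair of genes, with each group's mean subtracted; red is positive and blue negative. Gclc, Gclm, Gsr, Sod2 and Cat form a positive set, Nqo1, Srxn1 and Sod1 another, and the 15 pairs between them are negative with TMM scaling (-0.85 to -0.29).

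Library by library, log2 CPM of Cat relative to its group's mean was 0.53, 0.53, -0.20 and -0.86 in AAV-Null 1 to 4, and AAV-Osm 1 to 5 had 0.38, -0.51, -0.66, -0.05 and 0.84. Measures of the whole libraries moved with these values. The TMM factors were 1.07, 1.07, 0.993 and 0.923 in the controls in that order, then 1.02, 0.928, 0.938, 0.970 and 1.10 in the AAV-Osm libraries. The median log2 CPM, relative to the group's mean, of the 3300 shortest genes (exon length up to 1838 bases) minus that of the 3298 longest (4472.5 bases or more) was -0.25, -0.16, 0.14 and 0.28, then -0.04, 0.08, 0.05, 0.02 and -0.12. Cardiomyocyte marker sums were 87696, 89934, 97650 and 111244 CPM, then 89614, 116886, 112368, 105125 and 89278 CPM. AAV-Osm 5 thus had the most Cat, the highest TMM factor and the lowest cardiomyocyte marker sum of its group, and AAV-Null 4 the least Cat, the lowest TMM factor and the highest such sum of the controls. Single markers did not all go with the sum. Tnni3 did, being lowest of its group in AAV-Osm 5 (6537 CPM) and highest of the controls in AAV-Null 4 (13112 CPM). Pln went the other way, highest of its group in AAV-Osm 5 (4921 CPM) and lowest of the controls in AAV-Null 4 (2499 CPM). The part of these measures in the joint variation was not tested.

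**Figure D4:**
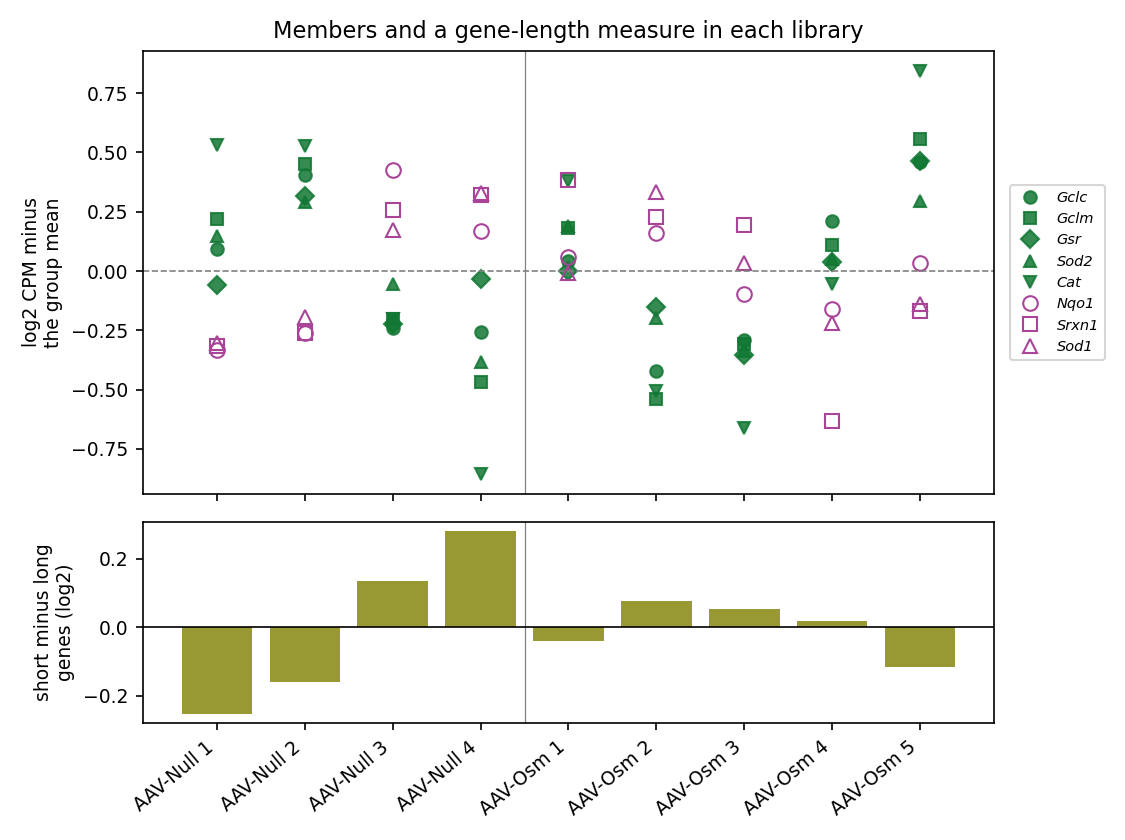
Upper panel, log2 CPM of 8 members in each library relative to the group's mean, filled green for Gclc, Gclm, Gsr, Sod2 and Cat and open purple for Nqo1, Srxn1 and Sod1; lower panel, the median of short genes minus that of long genes on the same scale (log2). AAV-Null 1 and 2 and AAV-Osm 5, where Cat is 0.53 to 0.84 above the mean, have values below 0 in the lower panel.

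The genes outside the list whose centred log2 CPM was most like that of the 3 members with the smallest p were, over 9 libraries and among 13182 genes, Rpl4 (r = 0.99) and Sdhaf2 (r = 0.97) for Nqo1, Cenpq (r = 0.99) and Sec23b (r = 0.98) for Gclm, and Cytip (r = 0.94) and Bfsp2 (r = 0.93) for Prdx1. Spearman's rho was 0.98 and 0.93, 1 and 0.98, and 0.93 and 0.85 in the same order. Each was the highest of many values, so no p is given, and all share the libraries and the scaling above. Cytip and Bfsp2 were at only 0.801 and 0.919 CPM on average.

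The rest of the pathway was read from lists of regulators, other NRF2 targets, glutathione enzymes, other superoxide and peroxide removal genes, and sources of reactive oxygen. Of 14 tested regulators of NRF2, 0 rose and 0 fell at an adjusted p of 0.05 in edgeR. Nfe2l2, which encodes NRF2 itself, was at 43.0 ± 8.61 CPM (SD, n = 4) and 39.9 ± 9.62 CPM (SD, n = 5), which gave a log2 fold change of -0.11 with an SE of 0.19 (adjusted p = 0.978 in edgeR). Keap1, its inhibitor, was at 91.3 ± 8.97 and 89.2 ± 15.1 CPM (log2 fold change -0.04, SE 0.15), and 11.4% of its exon bases overlap an antisense gene, so its counts are uncertain. Bach1, the competing repressor, was at 21.7 ± 8.33 and 21.4 ± 4.36 CPM (log2 fold change -0.02, SE 0.24). The most abundant regulators, Nfe2l1, a relative of NRF2 that controls proteasome genes, and Sqstm1, an autophagy receptor that binds KEAP1, had log2 fold changes of -0.03 (SE 0.16) and 0.17 (SE 0.15). Maff, a small MAF partner, was the only 1 of the 14 regulators with an unadjusted p under 0.05, beside 5.97% of all genes. It was named after its value was seen. It was at 13.8 ± 1.81 CPM in AAV-Null hearts, with 9.57 ± 2.32 CPM under AAV-Osm (-0.54 ± 0.19 as log2 fold change and SE, adjusted p = 0.650 in edgeR).

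Among 32 other NRF2 targets, 0 rose and 0 fell, 11 had a log2 fold change above 0 and 21 below, and the median was -0.02. The ferritin genes Fth1 and Ftl1, which store iron and were the most abundant, had log2 fold changes of -0.08 (SE 0.24) and -0.20 (SE 0.19). At an unadjusted p under 0.05 there were 3 of the 32, beside 5.97% of all genes, and these are named after their values were seen. Abcc1, an exporter of glutathione conjugates, was at 12.6 ± 2.5 and 18.1 ± 2.03 CPM without overlap between the groups (0.52 ± 0.17 as log2 fold change and SE, adjusted p = 0.575 in edgeR), and without AAV-Null 4 and AAV-Osm 5 it was 0.36. Aox1, an aldehyde oxidase, had a log2 fold change of 0.52 with an SE of 0.21 (adjusted p = 0.766 in edgeR) and Osgin1, an oxidative stress-induced growth inhibitor, one of -0.49 (SE 0.20, edgeR adjusted p = 0.755). In this list 2 of 32 genes had groups without overlap, Abcc1 and Htatip2, and 1 of 14 regulators did, Btrc, beside 2.28% of all genes.

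Of 31 glutathione enzymes 0 rose and 0 fell, with a median log2 fold change of -0.04. Gpx4, the peroxidase of membrane lipids, was at 928 ± 181 and 845 ± 161 CPM (log2 fold change -0.14, SE 0.17) and Mgst3, a microsomal glutathione transferase, at 700 ± 64.1 and 594 ± 172 CPM (log2 fold change -0.24, SE 0.19). Of 20 other superoxide and peroxide removal genes 0 rose and 0 fell, with a median log2 fold change of 0.00137. The peroxiredoxins Prdx5 and Prdx2 had log2 fold changes of -0.16 (SE 0.15) and 0.09 (SE 0.13). Of 13 sources of reactive oxygen 0 rose and 0 fell, with a median log2 fold change of -0.06, Rac1, a GTPase of the NADPH oxidase complex, being at -0.11 (SE 0.14) and Cyba, its membrane subunit p22phox, at -0.27 (SE 0.26). The medians of these 5 lists thus lay between -0.06 and 0.00137, beside 0.01 over all genes.

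**Figure D5:**
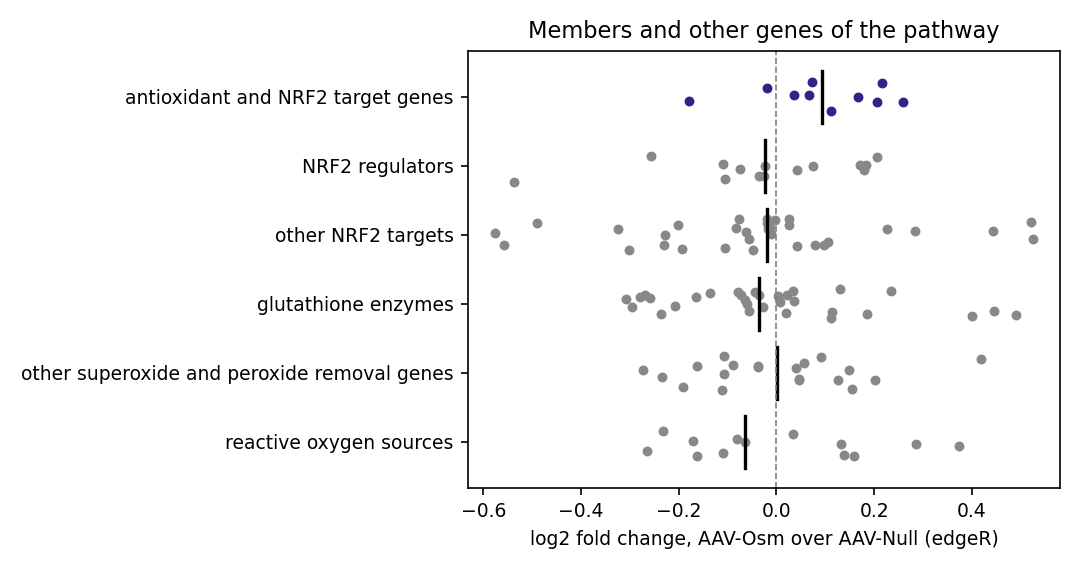
Log2 fold change, AAV-Osm over AAV-Null, of every tested gene (points, spread vertically for legibility) in the 10 members and the 5 other pathway lists, with each list's median as a black bar. No gene shown passed an adjusted p of 0.05, and the list medians run from -0.06 to 0.09.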

How the data were processed

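Heart apex RNA of 9 samples was sequenced as 75 base paired ends, per the labels' protocols; 5 samples per group were submitted and 1 AAV-Null sample of these is not analysed here. Per the submitters' processing notes, the authors used STAR 2.5.2b, featureCounts and Subread 1.5.1 on mm10; which annotation and strand setting they used, and how multi-matching reads were handled, is not given in the sources used here. Each deposited value is a raw, whole-number count for 1 gene, given with mm10 exon coordinates and summed exon length, which holds all isoforms and so affects levels per kilobase. All 13192 genes exceed 0.5 CPM in at least 4 libraries, and 4141 blank lines were left out. The smallest chi-square per degree of freedom between 2 libraries was 6.52, for AAV-Null 1 with AAV-Null 2. AAV-Osm 2 with AAV-Osm 3 followed at 9.68, and the other pairs ran from 17.3 to 132. As 0 pairs were identical, each library was counted as 1 sample, which does not show that the samples are independent.

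The test of counts was that of edgeR 4.0.16, run in R 4.3.3 (TMM, filterByExpr, robust quasi-likelihood F test, two-sided, group only, Benjamini-Hochberg over all genes); filterByExpr removed 0 genes. SE is the log2 fold change over the root of F, and intervals are 95%. DESeq2 1.42.0, limma 3.58.1 and other scalings, filters and left-out libraries were alternatives. The test was first tested on simulated data. Log2 CPM for correlations used a prior count of 2. Exons of the 10 members overlap 0 other genes in GENCODE vM21, but transcripts of Sod2, Prdx1, Sod1 and Gclm hold stretches matching other genes at 95% identity over at least 150 bases (13, 2, 1 and 15 genes), so their counts are uncertain.

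Members, lists and tests were chosen with earlier results of these data known. Named were all members, Nfe2l2, Keap1 and Bach1, and of each other list up to 4 genes past the threshold or, with none, the 2 most abundant; for likeness, the 2 genes with the highest r for each of the 3 members with the smallest p. Libraries were numbered within groups as names only.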

Additional observations from a re-analysis of the deposited data

How the results depend on the processing

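The count of members past an adjusted p of 0.05 was 0 under every alternative. Over all genes, 16 passed in edgeR, 5 with a minimum of 5 CPM in 4 libraries, 53 in DESeq2, 170 in limma-voom with quality weights, and 4 to 11 with 1 library left out (4 without AAV-Null 2 or AAV-Osm 2). The cause was not tested. No paired analysis was possible because the labels give the groups no shared replicate numbers.

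Signs of log2 fold changes that did not pass the test turned under several alternatives. In limma-voom Bach1 was at 0.036. With quality weights Hmox1 was at -0.051, Gclc at -0.25, Gclm at -0.18, Sod2 at -0.19, Cat at -0.40, Keap1 at 0.031, Sqstm1 at -0.0043, Fth1 at 0.42, Ftl1 at 0.012, Gpx4 at 0.028 and Cyba at 0.057. Without AAV-Null 3 and AAV-Null 4, Gclc was at -0.12, Gclm at -0.0385, Sod2 at -0.13, Cat at -0.22, Keap1 at 0.0049, Fth1 at 0.47, Ftl1 at 0.082, Gpx4 at 0.051, Cyba at 0.13 and the log2 Sod1 to Sod2 difference at 0.45. Without AAV-Null 4 and AAV-Osm 5, Hmox1 was at -0.033, Gclc at -0.11, Gclm at -0.0402, Sod2 at -0.125, Cat at -0.27, Keap1 at 0.094, Nfe2l1 at 0.099, Sqstm1 at -0.012, Fth1 at 0.30, Ftl1 at 0.076, Gpx4 at 0.056, Cyba at 0.13 and the Sod1 to Sod2 difference at 0.32.

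With 1 library left out, log2 fold changes ran from 0.11 to 0.375 for Nqo1 (highest without AAV-Null 3, with an unadjusted p of 0.0356 and an adjusted p of 0.804 in edgeR), 0.017 to 0.33 for Hmox1, 0.10 to 0.43 for Gclm, -0.25 to -0.12 for Prdx1, -0.025 to 0.20 for Srxn1, -0.058 to 0.15 for Sod1, -0.15 to 0.099 for Gsr, -0.047 to 0.17 for Sod2, -0.04985 to 0.38 for Cat, -0.018 to 0.27 for Gclc, -0.19 to 0.17 for Bach1, -0.11 to 0.034 for Keap1, -0.14 to 0.051 for Nfe2l1, -0.23 to 0.20 for Fth1, -0.30 to 0.036 for Ftl1, -0.24 to 0.0079 for Gpx4 and -0.45 to 0.0029 for Cyba. The Sod1 to Sod2 difference ran from -0.18 to 0.22.

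Alternatives for the correlations were chosen after seeing the data. Adjusted p stayed under 0.05 for Sod2 with Cat and Gclc with Gclm under 3 other scalings (0.0104 to 0.0234) and was above it without AAV-Null 3 and 4 (0.134 for both), without AAV-Null 4 and AAV-Osm 5 (0.223 for both) and with any 1 library left out, where fewer rearrangements exist. The number of pairs under it was 5 with TMM, 4 with DESeq2's size factors or upper quartiles and 10 with total counts. Counts as low as 84 limit the precision for Gclc.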

Other observations

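In each group the highest or lowest library's gap to its neighbour was set against Dixon's critical value for the CPM of the 10 members and for the 2 ratios. Of the 24 sets of values tested, 0 passed. The nearest to it was the Gclc to Gclm ratio of AAV-Null 4, at 0.441, whose gap was 0.768 of the group's range where 0.829 is the critical value for 4 libraries.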
